A study of Mus musculus with 8 samples.

Results

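The 10 immediate early genes described here encode the AP-1 subunits Fos, Fosb, Jun, Junb and Jund, the zinc finger factors Egr1, Egr2 and Egr3, and the early response proteins Ier2 and Dusp1. Each was read from the probe sets that the platform annotation pairs with its symbol alone, and where there were several, the brightest on average over the 8 arrays stood for the gene. All 10 were found, out of 19505 genes measured. The cells were mouse hematopoietic stem cells, obtained by a sort for c-Kit, Sca-1 and CD150 on cells without CD48 and lineage markers, from mice aged 6 to 10 weeks whose strain and genotype the labels do not give. Both groups were cultured with stem cell factor, the ligand of Kit, at 100 ng/ml. The vehicle group received sterile water for 16 h, and the eltrombopag group received eltrombopag at 10 µg/ml for 16 h. Eltrombopag, a drug given to raise the platelet count, also binds iron. There were 4 arrays in each group, with titles that number them from 1 to 4 as biological replicates. How many animals went into each is not stated, and 16 h was the only time sampled. The p-values measure only the spread between these samples, part of which may be technical.

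Immediate early genes are transcribed within minutes of a growth factor or stress signal and need no new protein for it, because factors already on their promoters, such as serum response factor with its partners and CREB, are switched on by MAP kinases. Their transcripts are short-lived, so a pulse is usually over long before a culture of many hours ends. AP-1 is a dimer of a Fos and a Jun protein, EGR factors bind GC-rich sites, and Dusp1 is a phosphatase that switches MAP kinases off again. In blood stem cells these genes are known both as marks of quiescence and as marks of handling stress during sorting.

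In these cells 0 of the 10 genes passed the test between eltrombopag and vehicle, and for each of the 10 the groups overlapped. The test was limma with Benjamini-Hochberg adjustment over all genes, and the adjusted p was 0.99978 for each member. Over all genes it called 0.0% (0 of 19505), and the groups did not overlap in 2.12%. At an unadjusted p under 0.05 there were 0 of the 10 and 3.33% of all genes (1.74% higher and 1.59% lower with eltrombopag). The 95% interval of the log2 difference lay within a 2-fold change in either direction for all 10 members, against 98.7% of all genes. It lay within a 1.5-fold change for 9 of the 10, against 88.0% of all genes. The exception was Egr1.

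The promoters were searched for sites of the factors named above. RefSeq's table (build GRCm38.p6) held start sites for 7 of the members: Fos, Fosb, Jun, Junb, Jund, Egr2 and Dusp1. The 250 bases upstream of each start were searched on both strands for TGACG, the core of the cAMP response element, for its full palindrome TGACGTCA, which contains TGACG, for the AP-1 site TGACTCA, for the CArG box bound by serum response factor, for TATAAA, and for the EGR sites GCGTGGGCG and GCGGGGGCG. The stretches below are printed because they hold these sites in an AP-1 subunit, in the phosphatase and in an EGR factor. Capitals mark TGACG on either strand, the CArG box and TATAAA.
Fos, chr12:85473640-85473889, plus strand: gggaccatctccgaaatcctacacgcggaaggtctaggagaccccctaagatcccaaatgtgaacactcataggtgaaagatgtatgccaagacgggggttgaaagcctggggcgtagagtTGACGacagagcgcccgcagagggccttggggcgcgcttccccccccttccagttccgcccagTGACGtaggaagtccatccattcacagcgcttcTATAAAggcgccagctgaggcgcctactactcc
Dusp1, chr17:26508473-26508722, minus strand: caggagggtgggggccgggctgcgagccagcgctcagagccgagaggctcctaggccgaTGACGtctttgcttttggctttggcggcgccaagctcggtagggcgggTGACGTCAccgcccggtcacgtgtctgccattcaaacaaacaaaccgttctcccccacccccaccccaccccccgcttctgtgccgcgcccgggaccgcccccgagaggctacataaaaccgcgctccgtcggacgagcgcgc
Junb, chr8:84978749-84978998, minus strand: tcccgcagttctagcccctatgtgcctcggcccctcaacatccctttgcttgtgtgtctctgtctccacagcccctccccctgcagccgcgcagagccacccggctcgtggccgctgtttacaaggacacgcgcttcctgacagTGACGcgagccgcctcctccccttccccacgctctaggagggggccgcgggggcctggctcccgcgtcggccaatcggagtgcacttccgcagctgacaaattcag
Egr2, chr10:67537793-67537822, plus strand: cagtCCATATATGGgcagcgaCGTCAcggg

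TGACG stood in 5 of the 7 members with a start site (Fos, Fosb, Junb, Egr2 and Dusp1), against 19.8% of 27025 genes in the same table. The Fos stretch held it at 129 and at 66 bases upstream of the start, with TATAAA at 33 bases. The full palindrome TGACGTCA was found in Dusp1, at 143 bases upstream, and in 1.77% of all genes. A CArG box was found in Egr2, in 4 of its 5 windows and at 72 bases upstream of the start at position 67537869, and in 1.62% of all genes. The windows of the starts at 67537869, 67537870 and 67537930 overlap and hold the same box, at 72, 73 and 133 bases upstream. In the Egr2 stretch the TGACG core lies on the opposite strand, 55 bases upstream. GCGGGGGCG was found in Fosb (2.93% of all genes), and neither TGACTCA nor GCGTGGGCG was found in any of the 7. The Jun and Jund windows held none of these motifs. Egr2 has 5 start sites in the table and the others 1 each, so genes with more starts had more sequence searched. These matches are letters in a window, and no binding was measured here. Sites outside the windows were not searched, so a motif not found here may lie further upstream.

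Across the whole series, Pearson correlations between arrays lay between 0.9868 and 0.9933 over genes. The leading principal component (25.5% of the variance) separated the arrays numbered 1 and 2, with scores from -18.8 to -11.0, from those numbered 3 and 4, with scores from 14.0 to 15.6, whatever their treatment. In the array numbered 3 of each group Y-linked transcripts stood out, with Uty at 7.71 and 6.98 against 3.02 to 3.31 in the remaining arrays. Kdm5d lay at 7.08 and 6.36 against 3.37 to 3.81. Male cells were thus present in number 3 and not seen in the other numbers, so sex cannot be told apart from number 3. Of the stem cell markers, 10 of 12 were measured, from Kit at 12.89 and 12.88 (means with vehicle and with eltrombopag) down to Slamf1, which encodes the sorted CD150, at 7.01 and 7.07 and Procr at 6.74 and 6.96. Of the 5 committed progenitor markers, Cd48, which the sort excluded, lay at 5.96 and 6.21 and Il7r at 4.85 and 4.90, below the arrays' mean median of 6.68. Cd34 at 11.93 and 11.89, Flt3 at 9.12 and 9.08 and Fcgr3 at 7.13 and 7.36 lay above it. T and NK cell markers averaged 5.15 to 5.23 over the vehicle arrays and 5.06 to 5.27 over the eltrombopag arrays. That was close to the mean lower quartile of 4.96, but Nkg7 among them lay at 8.61 and 8.49. Megakaryocyte markers averaged 7.45 to 7.97 and 7.71 to 7.96, from Itga2b at 9.33 and 9.47 down to Ppbp at 4.97 and 5.48. Stromal and endothelial markers averaged 6.25 to 6.55 and 6.31 to 6.46, from Pecam1 at 9.09 and 8.96 down to Lepr at 3.59 and 3.56. Transcripts were measured in bulk, so fewer cells of a type and less RNA per cell cannot be told apart.

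Among the Fos proteins, Fos itself had the largest difference between the groups of all 10 members. Its log2 value was 5.55, 5.51, 5.79 and 5.51 in vehicle arrays 1 to 4, and 6.29, 5.51, 5.58 and 5.78 in eltrombopag arrays 1 to 4. Eltrombopag array 1 stood above all the others, and the remaining 7 arrays of both groups lay between 5.51 and 5.79. The vehicle mean was 5.59 ± 0.13 (SD, n = 4) and the eltrombopag mean 5.79 ± 0.35 (SD, n = 4), which gives a log2 difference of 0.20 (SE 0.16, 95% interval -0.16 to 0.57). Without eltrombopag array 1 the difference was 0.037. By pair, the Fos difference was 0.743, 0.00481, -0.205 and 0.271 for numbers 1 to 4.

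Fosb, a close relative of Fos, had its highest value in a vehicle array. Its log2 value was 7.19, 6.47, 6.83 and 6.69 in vehicle arrays 1 to 4, and 6.72, 6.65, 6.85 and 6.91 in eltrombopag arrays 1 to 4. The highest and the lowest of the 8 values were both vehicle arrays, and the eltrombopag arrays lay between them. Fosb differed by -0.011 (SE 0.15, 95% interval -0.34 to 0.31). In number 1, the number with the largest Fos difference, the Fosb difference was -0.47.

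The Jun proteins supply the other AP-1 partner. Jun, the strongest activator among them, had log2 values of 7.64, 7.61, 8.05 and 7.54 with vehicle and 7.60, 7.69, 8.05 and 7.83 with eltrombopag, in the order of the numbers. In both groups the array numbered 3 was the highest. The difference between the groups was 0.084 (SE 0.14, 95% interval -0.22 to 0.39).

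Junb, which restrains the cycling of blood stem cells, had 9.23, 9.17, 9.09 and 9.16 with vehicle and 9.45, 9.27, 9.09 and 8.96 with eltrombopag. The eltrombopag values spread on both sides of the vehicle values, with an SD of 0.21 against 0.057 (n = 4 each). Junb differed by 0.032 (SE 0.12, 95% interval -0.22 to 0.29). Jund, the Jun protein with the steadiest expression in most cells, had 7.16, 7.46, 6.93 and 7.09 with vehicle and 7.19, 7.33, 7.43 and 7.13 with eltrombopag. Both the highest and the lowest Jund value were vehicle arrays. Jund differed by 0.11 (SE 0.13, 95% interval -0.17 to 0.39), and its largest pair difference, 0.49, was in number 3.

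**Figure D1:**
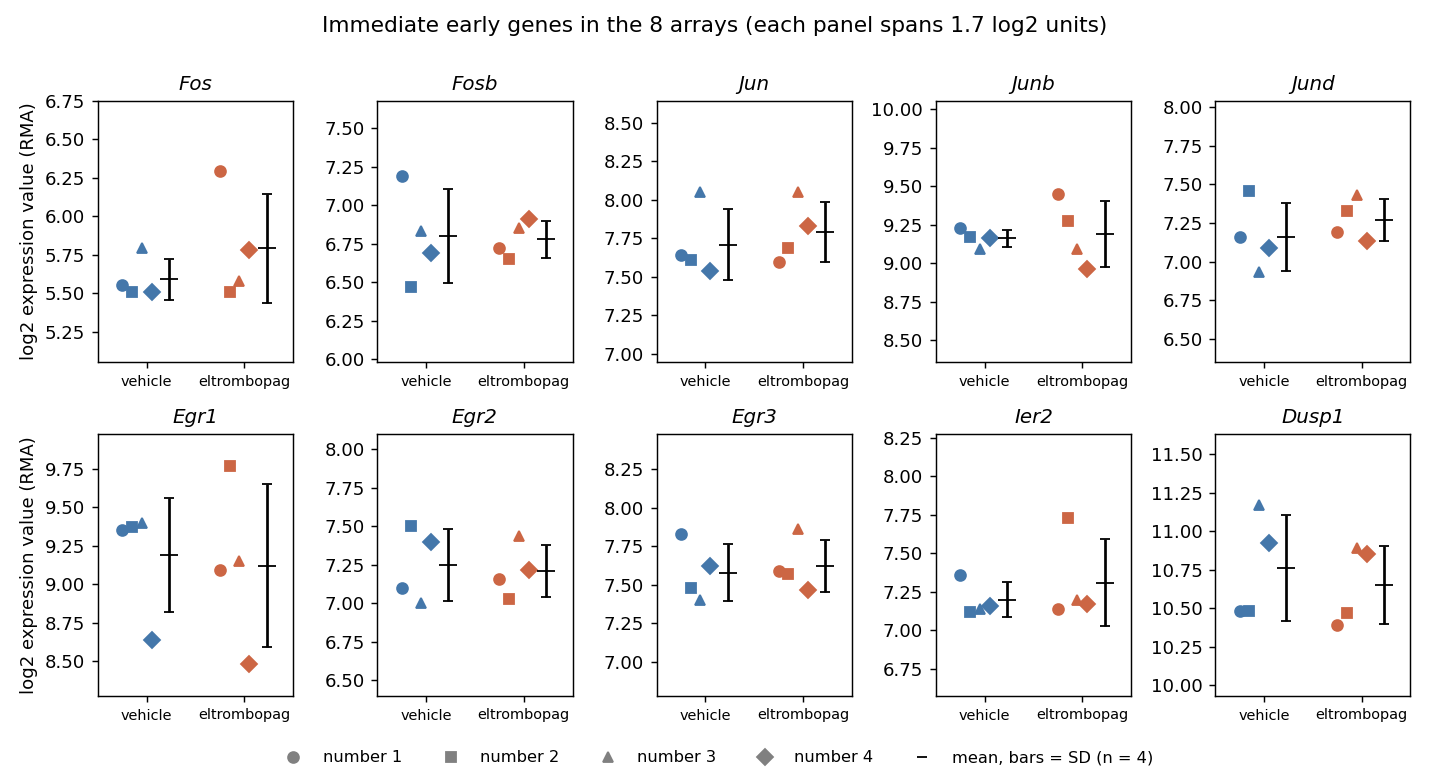
Log2 expression values (RMA, vertical axes, each spanning 1.7 log2 units) of the 10 members in the 4 vehicle and 4 eltrombopag arrays, with the marker giving the replicate number and black bars the mean and SD (n = 4). The groups overlap in every panel, Fos has 1 high eltrombopag array at 6.29, and Egr1 is low in both arrays numbered 4.

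Egr1, an EGR factor linked to stem cell quiescence and retention in the marrow, varied more over the 8 arrays than any other member. Its log2 value was 9.35, 9.37, 9.40 and 8.64 in vehicle arrays 1 to 4, and 9.09, 9.77, 9.15 and 8.48 in eltrombopag arrays 1 to 4. The arrays numbered 4 were the lowest of their group in both groups. The means were 9.19 ± 0.37 (SD, n = 4) and 9.12 ± 0.53 (SD, n = 4), a difference of -0.067 (SE 0.26, 95% interval -0.64 to 0.50). With the replicate number as a block the interval was -0.379 to 0.244, and the number of members with an interval within a 1.5-fold change was 10 rather than 9.

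Egr2 and Egr3, relatives of Egr1 that are induced by many of the same signals, had smaller spreads. Egr2 had 7.10, 7.50, 7.0 and 7.40 with vehicle and 7.16, 7.03, 7.44 and 7.22 with eltrombopag. Neither group was consistently higher, and the pair difference was -0.46 in number 2 and 0.44 in number 3. Egr2 differed by -0.033 (SE 0.14, 95% interval -0.33 to 0.27).

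Egr3 was the member with several probe sets, and the 3 of them are shown because they need not measure the same transcripts. The probe set that stood for the gene, which the platform names as unmapped, had 7.83, 7.48, 7.40 and 7.62 with vehicle and 7.59, 7.57, 7.86 and 7.47 with eltrombopag, higher in 2 of 4 pairs. It differed by 0.042 (SE 0.13, 95% interval -0.23 to 0.32). The other two differed by 0.088 (also named as unmapped, higher in 3 of 4 pairs) and by 0.12 (higher in 4 of 4 pairs). The last of these, the one whose name is not of an unmapped probe set, had 4.96, 5.19, 5.01 and 4.99 with vehicle and 5.20, 5.23, 5.14 and 5.06 with eltrombopag, near the arrays' mean lower quartile of 4.96, and its groups overlapped.

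Ier2, a small nuclear protein of the early response, had log2 values of 7.36, 7.12, 7.14 and 7.16 with vehicle and 7.14, 7.73, 7.20 and 7.17 with eltrombopag. Eltrombopag array 2 stood above the other 7, which lay between 7.12 and 7.36. Ier2 differed by 0.11 (SE 0.14, 95% interval -0.20 to 0.42), and by -0.026 without eltrombopag array 2.

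Dusp1, the MAP kinase phosphatase, had 10.48, 10.48, 11.17 and 10.92 in vehicle arrays 1 to 4 and 10.39, 10.47, 10.89 and 10.85 in eltrombopag arrays 1 to 4. In both groups arrays 3 and 4 lay above arrays 1 and 2. Dusp1 differed by -0.11 (SE 0.18, 95% interval -0.51 to 0.29). It was lower with eltrombopag in 4 of 4 pairs, by -0.0816, -0.0068, -0.281 and -0.0745 for numbers 1 to 4, and was the only member with the same direction in all 4, against 12.6% of all genes with either direction and 5.87% that were lower in all 4. After quantile normalization once more, 0 members had the same direction in all 4. Without vehicle array 3, which leaves the eltrombopag array of that number in the fit, the Dusp1 difference was 0.026, and without both arrays numbered 3 it was -0.0543. The block reduced the SE to 0.0925 without making it a call (adjusted p 0.987 in limma).

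**Figure D2:**
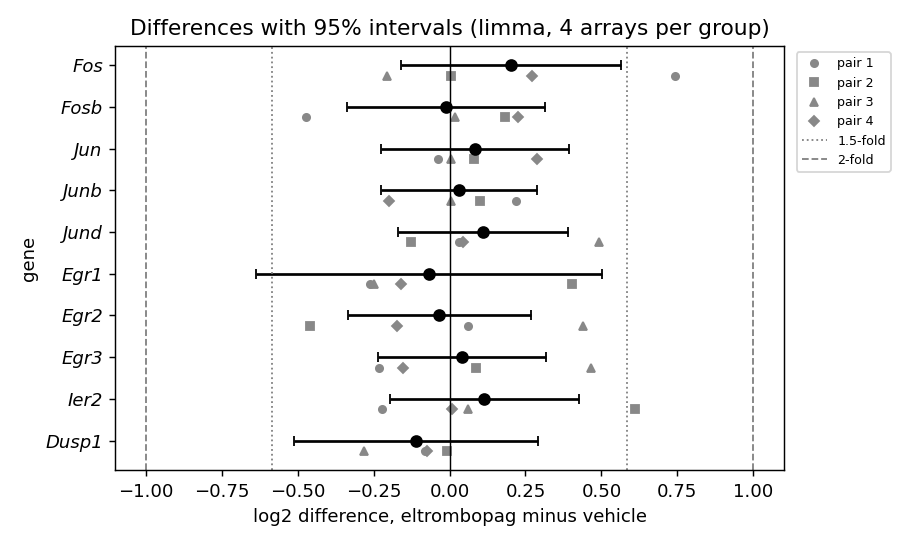
Log2 difference, eltrombopag minus vehicle (horizontal axis), of each member with its 95% interval from limma (black) and the 4 pair differences (grey), with dotted and dashed lines at a 1.5-fold and a 2-fold change. Every interval includes 0, and only the Egr1 interval crosses a dotted line.

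As a set, 6 of the 10 members were higher and 4 lower with eltrombopag, where 52.3% of all genes were higher. Their median log2 difference was 0.037, and the median over all genes was 0.0071. The median absolute difference was 0.076 for the members and 0.083 for all genes. The members did not move together by pair: 4 of 10 were higher with eltrombopag in number 1, 7 in number 2, 7 in number 3 and 5 in number 4. In number 1 the range ran from -0.47 for Fosb to 0.74 for Fos. The sign of 9 of the 10 differences turned in at least 1 of 19 alternative fits, from 1 fit for Jun, Ier2 and Dusp1 to 6 for Fosb. Fos kept its sign in the 18 that held it.

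Across the replicate numbers 0 of the 10 members passed the test, and Egr1, Dusp1 and Jun had the largest ranges of the number means. Both groups share the numbers 1 to 4, so the means of the 4 numbers could be compared with limma's F test across all genes, with the group as a term. The test called 0 of the 10 members, and 0.21% of all genes (41 of 19505). It treats the arrays of a number as independent samples, and with 2 arrays per number 0 calls do not show that the numbers had equal levels. The count of 41 fell whichever 1 of the arrays was left out. Such a fit leaves 1 number with a single array and less information on the spread. The fall therefore does not show which arrays the count rests on.

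At an unadjusted p under 0.05 in the F test there were 3 members, Egr1, Dusp1 and Jun, against 10.2% of all genes. Egr1 had number means of 9.22, 9.57, 9.28 and 8.56, a range of 1.02 log2 units (adjusted p 0.299 in limma). A range of at least 1 was found in 1.42% of all genes. Number 4 was low for Egr1 with the drug and without it. Dusp1 had number means of 10.43, 10.48, 11.03 and 10.88, a range of 0.60 (adjusted p 0.302 in limma). With a trend and robust variances in limma the adjusted p of Dusp1 was 0.0129, in a fit that called 198 of 19505 genes rather than 41. Dusp1 did not pass in the 14 other alternatives. Jun had number means of 7.62, 7.65, 8.05 and 7.69, with number 3 the highest, and a range of 0.43 (adjusted p 0.489 in limma).

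**Figure D3:**
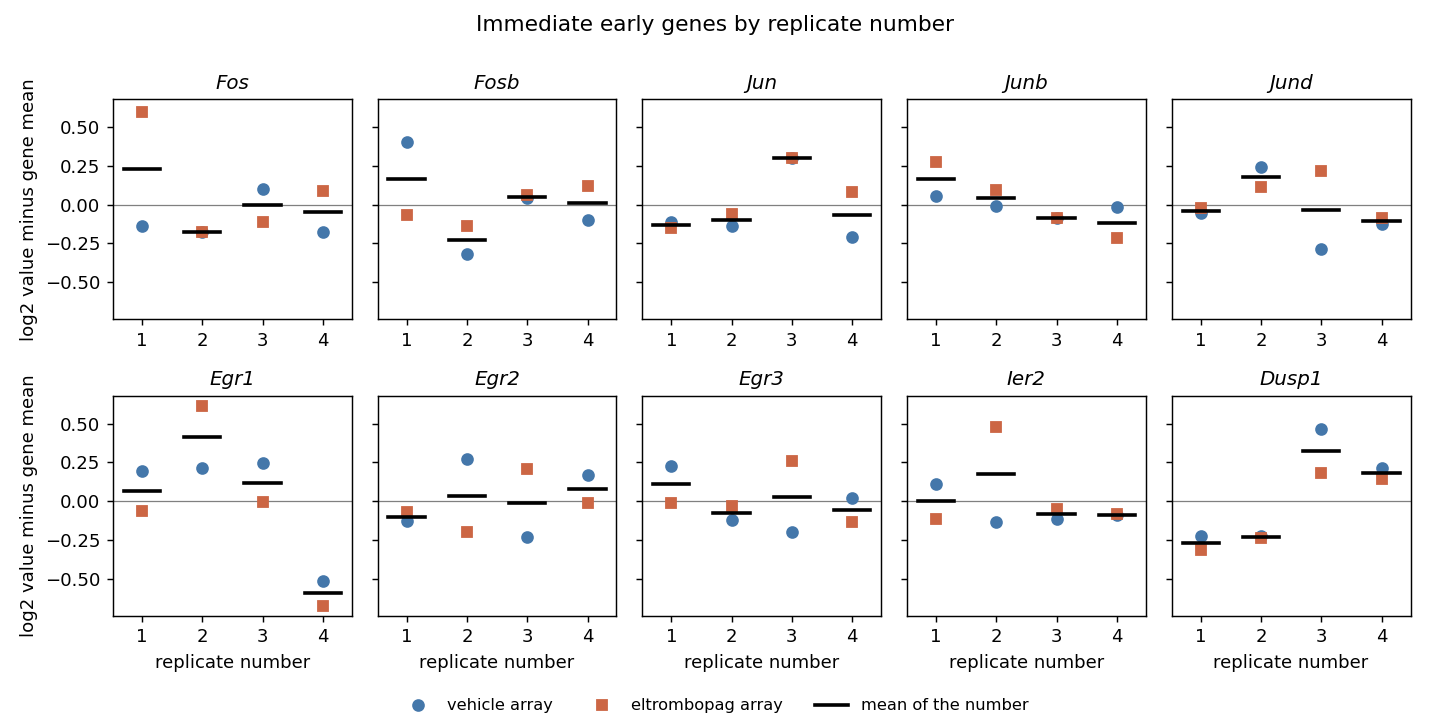
Log2 value minus the gene's mean over the 8 arrays (vertical axis) for each member by replicate number (horizontal axis), with the vehicle array as a circle, the eltrombopag array as a square and the mean of the number as a bar. Both arrays numbered 4 lie low for Egr1, both numbered 3 lie high for Jun and both numbered 3 and 4 lie above those numbered 1 and 2 for Dusp1, while the number means of Egr2 range over 0.18.

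The remaining 7 members had ranges of the number means from 0.18 for Egr2 to 0.41 for Fos, with adjusted p from 0.686 to 0.942 in limma. In all 10 members the range of the number means was larger than the absolute difference between the groups, as in 92.2% of all genes; a range over 4 means is larger by construction than a difference of a pair of means of like error. Over the 8 arrays the SD of Egr1, 0.42, stood at the 96.4th percentile of all genes, that of Dusp1 (0.29) at the 85.2nd and that of Fos (0.27) at the 82.0th. At the other end were Egr3 (0.17) at the 43.0th percentile and Junb (0.14) at the 31.3rd.

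**Figure D4:**
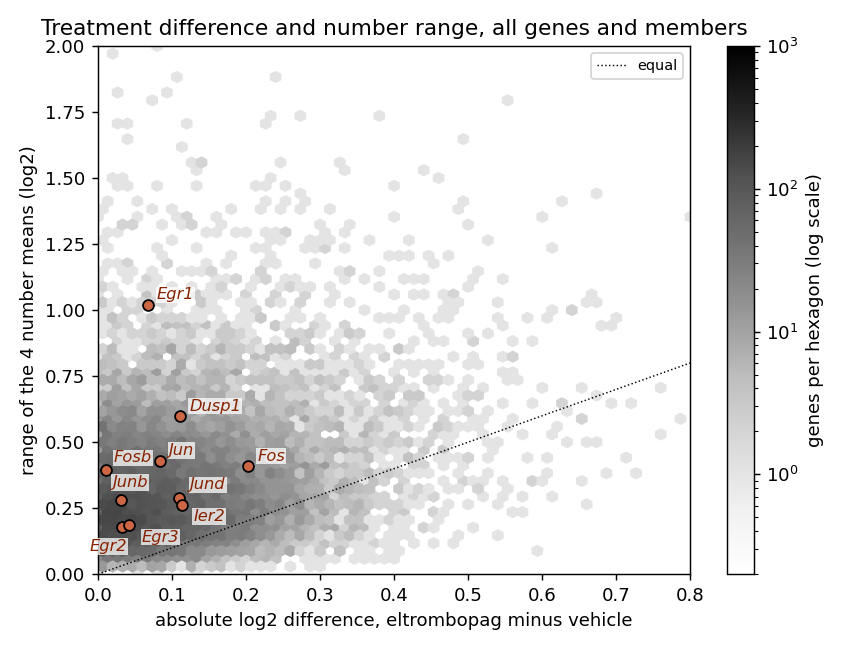
Range of the 4 number means (vertical axis, log2) against the absolute log2 difference between eltrombopag and vehicle (horizontal axis) for all genes (grey hexagons, log colour scale) and the 10 members (orange points), with a dotted line where both are equal. The members lie above the line, with Egr1 at a range of 1.02; 26 genes lie outside the plotted area.

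Of the cell type markers 0 of 64 passed the F test across the numbers (smallest adjusted p 0.117 in limma). The 10 neutrophil and monocyte markers had mean log2 values of 6.43, 6.17, 6.76 and 6.56 for numbers 1 to 4. In 4 of the 10, with S100a8 and Ngp among them (ranges of 2.23 and 1.89), both numbers 3 and 4 lay above numbers 1 and 2, and in 1, Elane, both lay below. The 5 erythroid markers measured had means of 6.70, 6.82, 7.35 and 7.07, with numbers 3 and 4 above in 3 of 5. The 5 committed progenitor markers had 7.93, 7.97, 7.74 and 7.73, with numbers 3 and 4 below in 3 of 5. By group, the neutrophil and monocyte mean ran from 6.14 to 6.80 over the vehicle arrays and from 6.20 to 6.85 over the eltrombopag arrays, and the erythroid mean from 6.69 to 7.10 and from 6.70 to 7.60. The 10 stem cell markers had 8.69, 8.99, 9.08 and 9.02 for numbers 1 to 4, with numbers 3 and 4 above in 4 of 10 and below in 0. Their part in the number means of Dusp1, Egr1 and Jun was not tested, and neither was that of the Y-linked signal in the arrays numbered 3.

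The genes with the pattern most like that of Egr1 were found by the root-mean-square difference over the 8 arrays, after each gene was centred on its mean, among 6798 genes with an SD at least 0.5 times that of Egr1. They were Manba, a lysosomal mannosidase (0.141 log2 units), Lta4h, an enzyme of leukotriene synthesis (0.144), the zinc finger genes Zkscan8 (0.148) and Zfp248 (0.163), and Nhsl2 (0.161). Of the other members, Fosb ranked 3089, Fos 4263 and Dusp1 5287, and the other 6 had an SD too small to be ranked.

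Beyond the members, 10 lists held the signalling and target genes around them, with 147 of 161 entries measured, 5 of them through a synonym. Between eltrombopag and vehicle 0 genes of any list passed, as in all genes (0.0%). AP-1 subunits and their relatives outside the members had 9 of 13 genes higher and a median difference of 0.079 on the log2 scale. Chosen by the smallest p in that list, Atf3, a stress-induced partner of Jun, had 4.48 ± 0.32 with vehicle and 4.91 ± 0.12 with eltrombopag (SD, n = 4 each), 0.43 apart (SE 0.15), and was higher in 4 of 4 pairs. Both means were under 4.96, the mean lower quartile of the arrays. Batf3 differed by 0.16 and Atf2 by -0.12.

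Other immediate early and rapid response genes had 19 of 40 higher and a median of -0.0077. The antiproliferative gene Btg2 had the smallest p there, with 6.55 ± 0.11 with vehicle and 5.97 ± 0.18 with eltrombopag (SD, n = 4 each), -0.58 apart (SE 0.11, unadjusted p 0.000391 and adjusted p 0.99978 in limma). It was followed by the pseudokinase gene Trib1 (0.22) and the stress gene Gadd45g (0.28). Across the replicate numbers 15 of the 40 had an unadjusted p under 0.05 in the F test, against 10.2% of all genes. After adjustment 2 of the 40 passed, against 0.21% of all genes, and these 2 were named after their values were seen. Pim1, a kinase gene downstream of STAT5, had 9.59 to 9.83 in the arrays numbered 1 and 2 and 8.57 to 8.74 in those numbered 3 and 4 (range of the number means 1.18, adjusted p 0.0416 in limma). Bhlhe40, a repressor of the basic helix-loop-helix family, had 9.16 to 9.43 and 7.63 to 8.23 (range 1.47, adjusted p 0.0416 in limma). Both lay lower in numbers 3 and 4, where Dusp1 lay higher. Neither passed when any 1 of the 8 arrays was left out, which leaves 1 number with a single array. Those fits do not show which arrays the calls rest on.

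The kinases that switch these genes on gave medians near that of all genes or below it. From the Kit receptor to ERK 6 of 14 genes were higher (median -0.010), and the smallest p belonged to the phosphatase gene Ptpn11 (-0.17) and the exchange factors Sos1 (0.14) and Sos2 (-0.11). Of the JNK and p38 kinases 6 of 15 were higher (median -0.079), led by Map3k5 (-0.31), Mapk11 (0.21) and Mapk9 (-0.22). Serum response factor, its cofactors and CREB had 7 of 14 higher (median 0.00010), led by Myocd (0.25), Crtc3 (0.17) and Elk4 (-0.16). The genes named here and below were those with the smallest p of their list, with 0.99978 as the adjusted p of every one in limma.

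The brakes on the pathway likewise held 0 genes that passed. Of the dual specificity phosphatases other than Dusp1, 5 of 12 were higher (median -0.067), led by Dusp14 (-0.21), Dusp7 (0.20) and Dusp8 (0.26). ERK feedback genes and ERK-driven ETS factors were lower in 11 of 14 cases (median -0.088), led by Phlda1 (-0.28), Etv5 (-0.21) and Spry4 (-0.16). At an unadjusted p under 0.05 in limma there were 0 of these 14, and ERK activity was not measured. The EGR corepressors Nab2 (0.18) and Nab1 (-0.0083) had SEs of 0.20 and 0.12 for these differences. The list for AU-rich elements, the signals for rapid decay in early transcripts, also held other decay regulators, such as Pum2 and Cnot7. Its genes were higher in 6 of 12 cases (median -0.00074), led by Auh (0.50), Tia1 (0.12) and Pum2 (-0.082). Heat shock genes, which rise with early genes when tissue is dissociated, were lower in 8 of 11 cases (median -0.042), led by Hsph1 (-0.14), Hspd1 (-0.10) and Hspe1 (0.066).

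**Figure D5:**
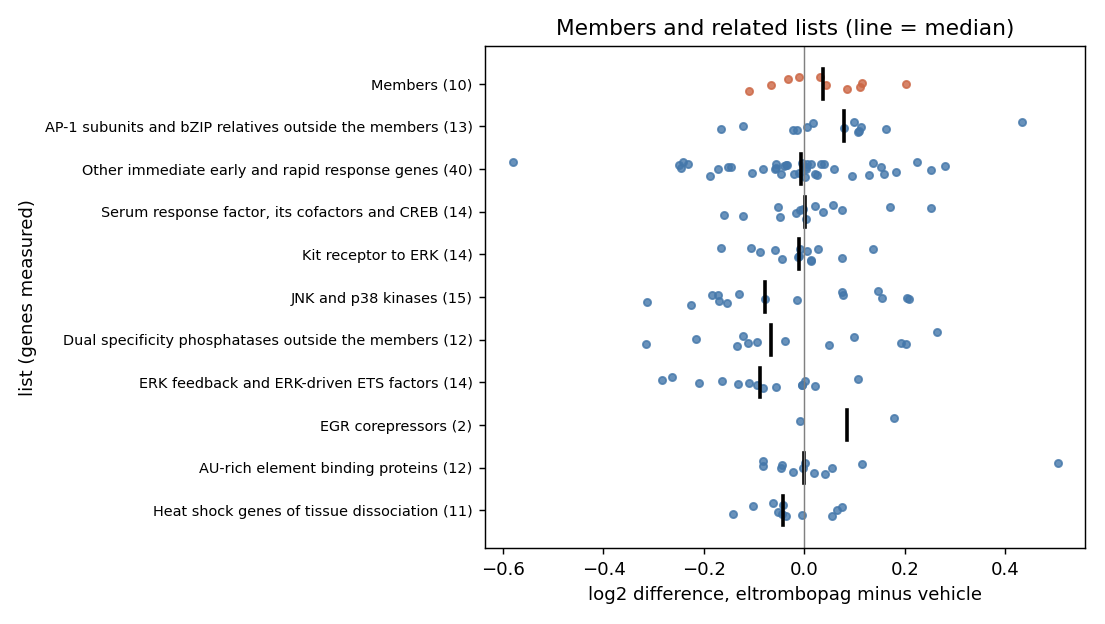
Log2 difference, eltrombopag minus vehicle (horizontal axis), of each measured gene of the members (orange) and of the 10 related lists (blue), with the number of genes in brackets and a black line at the median of each. The members range from -0.11 for Dusp1 to 0.20 for Fos, inside the range of the list of other immediate early genes, where Btg2 stands at -0.58.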

How the data were processed

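The deposited values are log2 expression values of Affymetrix mouse arrays, 1 per probe set and array, for 22206 probe sets. For the authors' steps, RMA, the oligo package and limma are listed in the submitters' processing notes, without versions. RMA gives the arrays a common distribution, so differences in total RNA per array are removed. Per the labels' protocols, about 10 ng of RNA was amplified and labelled for each array. Of the probe sets 19572 had 1 gene symbol, which gave 19505 genes.

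Eltrombopag was compared with vehicle in limma 3.58.1 (R 4.3.3, two-sided, lmFit with eBayes), with group as the only term in the 8 arrays, and a gene was called at an adjusted p under 0.05. A second fit compared the replicate numbers with an F test. Both were tested on simulated data, where the F test missed most genes given the smaller of the added shifts. Deviations from the group mean correlated at 0.142 to 0.294 for arrays of the same number and at -0.208 to 0.171 for other arrays. The ranges overlap, because vehicle number 4 matched eltrombopag number 3 more closely (r = 0.171) than its own number (0.142). Pairing within numbers 3 and 4 was therefore not shown. On the evidence of the data alone, the numbers served as pairs for the pair differences, the block and the random effect. The main treatment fit was unpaired. Alternatives were the block, a random effect of the number, other scalings, array weights, a filter on dim genes, mean probe sets and leaving out arrays. The members and lists were chosen with earlier results of these data known. Named genes were the members, up to 3 genes per list with the smallest p, and the 5 genes most like the member with the largest SD. The number of arrays limits the precision.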

Additional observations from a re-analysis of the deposited data

Results flagged for a closer look

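Each member was checked in each treatment group for 1 array that stood apart, which makes 20 groups of 4, and 4 were found. Chance gives about 1 in 20 groups. For Egr1 it was vehicle array 4 at 8.64, while the rest of the group spanned 9.35 to 9.40 (the gap was 0.93 of the whole range). For Ier2 it was eltrombopag array 2 at 7.73, with the rest at 7.14 to 7.20 (0.899 of the range), and vehicle array 1 at 7.36, with the rest at 7.12 to 7.16 (0.836). For Fos it was vehicle array 3 at 5.79, with the rest at 5.51 to 5.55 (0.855). The Fos value of 6.29 in eltrombopag array 1 was not among these.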

How the results depend on the processing

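The treatment fit called 0 genes in all 19 alternatives, with 630 to 827 genes at an unadjusted p under 0.05 when 1 array was left out, and 904 with the replicate block in place of 650. The block changed no call. The sign turned for Fosb with array weights (0.020). With numbers 1 and 2 only it turned for Jund (-0.0487), Egr1 (0.070), Egr3 (-0.0723), Batf3 (-0.18), Hspd1 (0.0761), Nab1 (0.22) and Spry4 (0.11), and with numbers 3 and 4 only for Fosb (0.12), Junb (-0.097) and Egr2 (0.13). Without both arrays numbered 3 it turned for Jund (-0.0179), Egr3 (-0.099), Batf3 (-0.0168) and Nab1 (0.0617). Leaving out 1 array moved Fosb between -0.12 and 0.12, Jun between -0.0022 and 0.20, Junb between -0.054 and 0.11, Egr1 between -0.28 and 0.15, Egr2 between -0.12 and 0.049, Egr3 between -0.038 and 0.12, Ier2 between -0.026 and 0.17, Dusp1 between -0.21 and 0.026, Nab1 between -0.061 and 0.078 and Nab2 between -0.00048 and 0.33. The members' median difference lay between -0.018 and 0.10 when 1 array was left out. The count of members with the same direction in every pair was 0 with quantile normalization once more, 3 with numbers 1 and 2 only, 6 with numbers 3 and 4 only, 2 without both arrays numbered 3, and 2 to 4 when 1 array was left out. With fewer pairs a like direction is easier to meet (23.9% to 25.6% of all genes with 3 pairs). It was met by 50.6% of all genes with numbers 1 and 2 only and by 48.6% with numbers 3 and 4 only. Across the replicate numbers 198 genes were called with a trend and robust variances, 2 without both arrays numbered 3, and 3 to 17 when 1 array was left out. The cause was not tested.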
